A study of Homo sapiens with 15 samples.

Results

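RGS2, MSTO1, TSPYL2 and C6orf48 are 4 genes, of 18338 measured, that were selected on their own measured values because their RNA was strongly higher in thapsigargin-treated Biosensor cells and because none of them belongs to a standard stress gene list. No numerical threshold defined the choice, and 0 of the 4 genes were in the 4 stress gene lists (PERK, IRE1, ATF6 and ERAD) that the study used. Biosensor cells are HEK293 human embryonic kidney cells that stably carry the tau repeat domain with the P301S change fused to yellow fluorescent protein (TauRD(P301S)-YFP), and this construct was present in every group. Gene expression was measured by RNA-Seq in 15 libraries: 5 from cells given 0.3 μM thapsigargin, 5 from cells transfected with brain lysate of PS19 mice, a tau transgenic strain, and 5 from cells transfected with brain lysate of wildtype mice, called control. The sources used here do not say how long thapsigargin was applied, whether those cells also received lysate, or whether control cells received its solvent, so drug, lysate and solvent cannot be told apart. Replicates were called independent, but no source names separate cultures, so the spread between them may be partly technical.

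Thapsigargin blocks the SERCA calcium pumps of the endoplasmic reticulum (ER). The loss of ER calcium disturbs protein folding and activates the unfolded protein response, whose sensors PERK, IRE1 and ATF6 raise chaperone, degradation and amino acid genes. The genes described here have other known roles. RGS2 is a regulator of G protein signalling: it speeds GTP hydrolysis on Gq alpha subunits, and it also binds the epsilon subunit of the translation factor eIF2B. MSTO1 encodes misato, a protein needed for mitochondrial shape, fusion and distribution. TSPYL2, on the X chromosome, encodes a TSPY-like protein of the nucleosome assembly protein family that binds the scaffold CASK. C6orf48, now named SNHG32, lies in the major histocompatibility complex on chromosome 6 and hosts small nucleolar RNAs in its introns; RefSeq lists it as a long noncoding RNA.

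To show what the start regions of genes that moved together look like, the stretches around their transcription starts are printed below from RefSeq (build GRCh38.p14, plus strand, 250 bases before to 10 bases after the start). Capitals mark CCAAT, the letters of the CCAAT box bound by NF-Y, on either strand (ATTGG where it lies on the minus strand) and, in C6orf48, the first 5 transcribed bases. RefSeq lists 2 starts for MSTO1 in these promoters, and the window of the downstream start is shown.
RGS2, chr1:192808789-192809048: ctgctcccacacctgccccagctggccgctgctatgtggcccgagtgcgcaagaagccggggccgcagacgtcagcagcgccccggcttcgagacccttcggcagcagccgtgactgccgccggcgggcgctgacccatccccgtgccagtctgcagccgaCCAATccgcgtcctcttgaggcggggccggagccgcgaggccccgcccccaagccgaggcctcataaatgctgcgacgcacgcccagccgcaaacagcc
MSTO1, chr1:155609968-155610227: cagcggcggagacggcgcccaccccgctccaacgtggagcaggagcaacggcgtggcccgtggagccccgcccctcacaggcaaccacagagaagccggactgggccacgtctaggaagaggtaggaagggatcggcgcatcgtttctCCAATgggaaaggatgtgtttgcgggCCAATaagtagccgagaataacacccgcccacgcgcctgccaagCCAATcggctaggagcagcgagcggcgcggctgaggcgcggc
TSPYL2, chrX:53082117-53082376: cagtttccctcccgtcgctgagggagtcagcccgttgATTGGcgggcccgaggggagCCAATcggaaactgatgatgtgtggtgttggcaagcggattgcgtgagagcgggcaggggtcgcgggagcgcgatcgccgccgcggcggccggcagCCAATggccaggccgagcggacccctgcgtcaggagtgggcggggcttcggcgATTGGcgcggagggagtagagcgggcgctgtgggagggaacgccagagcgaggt
C6orf48, chr6:31834666-31834925: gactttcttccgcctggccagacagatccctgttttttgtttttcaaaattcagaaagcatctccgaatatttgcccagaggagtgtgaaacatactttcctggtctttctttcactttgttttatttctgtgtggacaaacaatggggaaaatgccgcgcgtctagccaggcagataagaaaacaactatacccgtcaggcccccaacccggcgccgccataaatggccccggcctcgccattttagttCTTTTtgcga

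All 4 genes matched a RefSeq promoter of 300 bases, which runs 250 bases before to 50 after the start and was searched on both strands. TSPYL2 held 4 CCAAT matches, at positions -213 and -44 on the minus strand and at -193 and -97 on the plus strand, given for the leftmost base and counted from the first transcribed base as 1. MSTO1 held 3, at -102, -76 and -32 from the start shown (-54, -28 and 17 from the other). RGS2 held a single match at -89, and C6orf48 held none. At least 1 match was present in 34.6% of all 35116 RefSeq promoters, at least 3 in 3.26% and at least 4 in 0.991%. The thresholds of 3 and 4 were chosen after the matches were seen, and a match is a description of letters, not a bound site.

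None of the 4 promoters held the other motifs searched. These were an ATF4 element (TGATGNAA, 3.62% of all promoters), the UPR element (TGACGTGG, 0.729%), the cyclic AMP response element (TGACGTCA, 1.85%), an AP-1 site (TGANTCA, 7.71%) and TATAAA (11.5%). The ER stress element (ERSE: CCAAT, 9 unspecified bases, then CCACG) was in 0.0769% of all promoters and ERSE-II (ATTGG, 1 base, then CCACG) in 0.0541%. Among promoters of the tested genes the shares were 1.92% for the ATF4 element, 0.870% for the UPR element, 2.90% for the cyclic AMP response element, 4.69% for AP-1 and 5.91% for TATAAA, with 0.119% for ERSE and 0.0912% for ERSE-II. C6orf48 was the only gene of the 4 whose transcript began with C followed by 4 pyrimidines, letters with which terminal oligopyrimidine messages begin, and 4.07% of RefSeq starts had this form. Its promoter had 48.3% G and C, compared with 69.7% for RGS2, 68.7% for MSTO1 and 68.7% for TSPYL2.

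Levels are given as FPKM, the fragments per kilobase of transcript scaled to all mapped fragments of the library, so that genes can be compared per length. Fold changes are differences of mean log2(FPKM + 0.5), which slightly understate the change of low genes. RGS2 RNA was at 28.67, 28.44, 31.68, 29.33 and 27.34 FPKM in thapsigargin libraries 1 to 5, at 8.33, 8.36, 7.96, 8.92 and 7.92 FPKM in PS19 libraries, and at 7.37, 9.18, 8.69, 8.1 and 8.03 FPKM in control libraries. Every thapsigargin library was far above every other library, whereas PS19 values lay within the range of the control values. In RNA from bulk cultures, more cells that express a gene and more RNA per cell cannot be told apart. The means were 29.1 ± 1.61 FPKM with thapsigargin, 8.30 ± 0.403 FPKM with PS19 lysate and 8.27 ± 0.689 FPKM with control lysate (SD, n = 5 each). The ratio of thapsigargin to control means was 3.52, and the log2 fold change was 1.76 (SE 0.078).

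MSTO1 was the most abundant of the 4. Its level was 186.43, 175.27, 156.88, 173.55 and 164.09 FPKM in thapsigargin libraries, 41.22, 43.22, 39.93, 44.53 and 41.04 FPKM in PS19 libraries, and 42.63, 45.2, 39.23, 42.59 and 42.12 FPKM in control libraries. The thapsigargin libraries did not overlap the other groups, which lay within the same narrow band. Mean MSTO1 levels were 171.2 ± 11.3 FPKM with thapsigargin, 42.0 ± 1.85 FPKM with PS19 lysate and 42.4 ± 2.12 FPKM with control lysate (SD, n = 5 each), a thapsigargin to control ratio of 4.04 and a log2 fold change of 2.0 (SE 0.070). MSTO1 has a near-identical pseudogene, MSTO2P, which was not analysed here: 34.2% of the 100-base stretches of the longest MSTO1 transcript also occur in MSTO2P, so how the reads were divided between them is uncertain.

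TSPYL2 had the largest thapsigargin fold change of the 4. It was measured at 147.84, 160.49, 119.2, 132.91 and 121.34 FPKM in thapsigargin libraries, at 32.94, 31.5, 30.58, 31.05 and 33.14 FPKM in PS19 libraries, and at 30.25, 32.88, 31.52, 27.96 and 36.21 FPKM in control libraries. Again thapsigargin libraries stood clear of the rest, with more spread among themselves than for the other 3 genes. TSPYL2 averaged 136.4 ± 17.6 FPKM with thapsigargin, 31.8 ± 1.14 FPKM with PS19 lysate and 31.8 ± 3.08 FPKM with control lysate (SD, n = 5 each). Its ratio of thapsigargin to control means was 4.29 and its log2 fold change 2.08 (SE 0.098).

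C6orf48 was at 138.21, 135.54, 111.93, 130.75 and 125.72 FPKM in thapsigargin libraries, at 35.71, 39.54, 35.11, 32.97 and 39.46 FPKM in PS19 libraries, and at 41.28, 41.82, 41.9, 35.69 and 41.19 FPKM in control libraries. The thapsigargin libraries were again apart, and every PS19 library lay below every control library except control replicate 4, which was low in its own group. The means were 128.4 ± 10.4 FPKM with thapsigargin, 36.6 ± 2.87 FPKM with PS19 lysate and 40.4 ± 2.64 FPKM with control lysate (SD, n = 5 each), a thapsigargin to control ratio of 3.18 and a log2 fold change of 1.66 (SE 0.078). Another annotated gene model, whose position was not compared, shares 33.4% of the 100-base stretches of the longest C6orf48 transcript. RGS2 and TSPYL2 share none with another gene in the annotated transcripts.

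**Figure D1:**
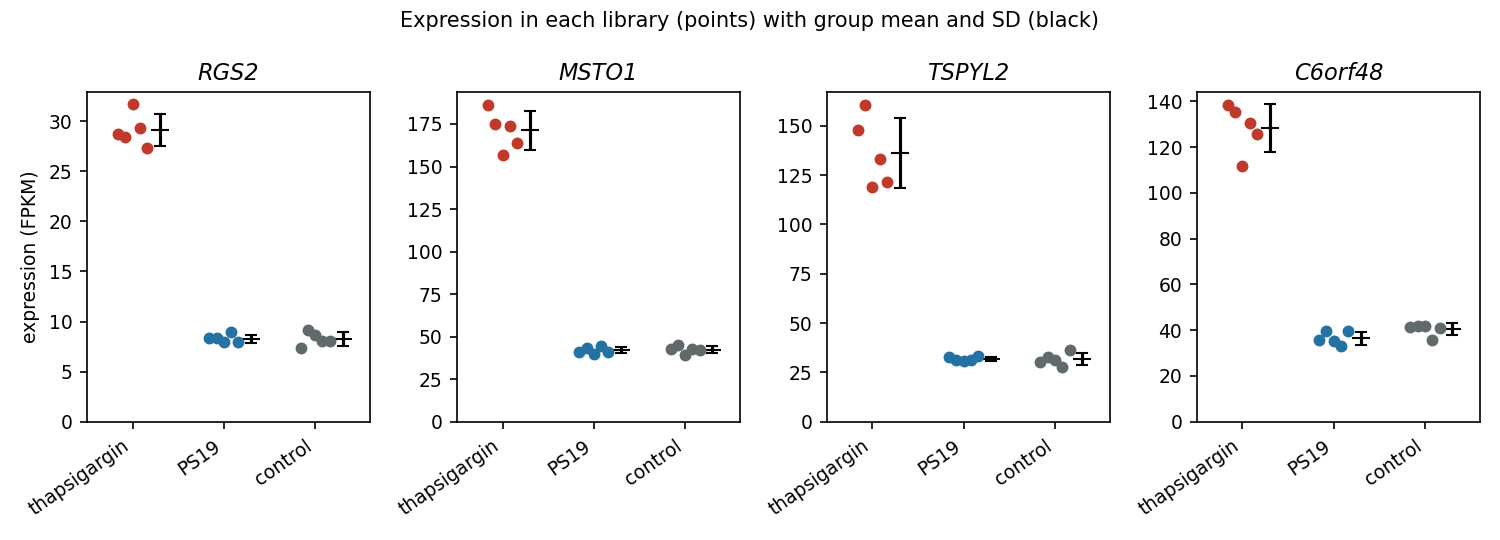
Expression in FPKM (vertical axes, from 0) of RGS2, MSTO1, TSPYL2 and C6orf48 in each library (points) of the thapsigargin, PS19 and control groups, with the group mean and SD in black (n = 5 each). In every panel the lowest thapsigargin library lies above the highest PS19 and control library, by 2.67 times (C6orf48) to 3.47 times (MSTO1) over the highest control library.

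The thapsigargin values chose these genes, so they are given with no test. Of 11753 genes averaging 1 FPKM or more over all libraries, all 4 chosen genes had a log2 fold change above 1.5, as 0.493% of genes did. TSPYL2 ranked 23rd by log2 fold change from the highest, MSTO1 31st, RGS2 37th and C6orf48 41st. Groups that did not overlap, with thapsigargin higher, were seen for 4 of 4 chosen genes and for 14.7% of all tested genes against control. Against PS19 the chosen genes again did not overlap, as 15.6% of tested genes did not. The log2 fold changes over PS19 were 1.75 for RGS2, 2.01 for MSTO1, 2.07 for TSPYL2 and 1.80 for C6orf48. Both comparisons share the thapsigargin libraries and are not separate evidence.

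The 4 genes started from different levels. In control cells RGS2 stood at the 38.3rd percentile of tested genes by mean FPKM, TSPYL2 at the 76.6th, C6orf48 at the 81.4th and MSTO1 at the 82.4th. With thapsigargin RGS2 stood at the 74.3rd percentile, C6orf48 at the 94.1st, TSPYL2 at the 94.5th and MSTO1 at the 95.7th. By FPKM the order with thapsigargin was MSTO1, TSPYL2, C6orf48 and RGS2, where library values of MSTO1 and TSPYL2 overlapped, as did those of TSPYL2 and C6orf48. In control cells the order was MSTO1, C6orf48, TSPYL2 and RGS2, again with only RGS2 clear of the gene next to it.

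The coefficient of variation with thapsigargin was 5.55% for RGS2, 6.59% for MSTO1, 8.08% for C6orf48 and 12.9% for TSPYL2, and its median over all tested genes was 15.4%. With PS19 lysate it was 3.59% to 7.86% (median gene 6.59%) and with control lysate 5.01% to 9.68% (median gene 9.06%), with C6orf48 above the median gene in PS19 and TSPYL2 above it in control libraries. Thapsigargin replicate 3 gave the lowest value of MSTO1, TSPYL2 and C6orf48 and the highest value of RGS2. Leaving out any thapsigargin or control library kept the log2 fold change between 1.72 and 1.79 for RGS2, 1.97 and 2.03 for MSTO1, 2.02 and 2.13 for TSPYL2, and 1.61 and 1.70 for C6orf48.

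The PS19 comparison asked whether tau-seeding brain lysate shifts expression in the same cells, and it was not used to choose the genes. It shares its control libraries with the thapsigargin comparison that chose them, so it is not fully separate from the choice. None of the 4 passed the test with PS19 lysate. Across all tested genes 5 (0.0425%) passed an adjusted p of 0.1 in limma, and 706 had an unadjusted p under 0.05. The log2 fold change of RGS2 was 0.0063 (95% interval -0.134 to 0.147, limma adjusted p = 0.993, exact two-sided permutation p = 0.913). That of MSTO1 was -0.012 (95% interval -0.120 to 0.096, limma adjusted p = 0.978, exact permutation p = 0.770). TSPYL2 differed by 0.0080 (95% interval -0.125 to 0.141, limma adjusted p = 0.990, exact permutation p = 0.881). These 3 intervals lie between -0.134 and 0.147, set beside log2 fold changes of 1.76 to 2.08 for the same genes with thapsigargin.

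C6orf48 came nearest to a difference. All 5 PS19 libraries were below the mean of the control libraries, 2 of them below the lowest control library, and the log2 fold change was -0.14 (95% interval -0.276 to -0.0092). It had an unadjusted limma p of 0.0376 but did not pass after adjustment over all genes (adjusted p = 0.820) or in the exact two-sided permutation test (p = 0.0635, where 0.0079 is the smallest p that 5 against 5 libraries allow). The estimate stayed negative in all 22 alternative settings, between -0.19 and -0.11, with adjusted p between 0.479 and 1.00.

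**Figure D2:**
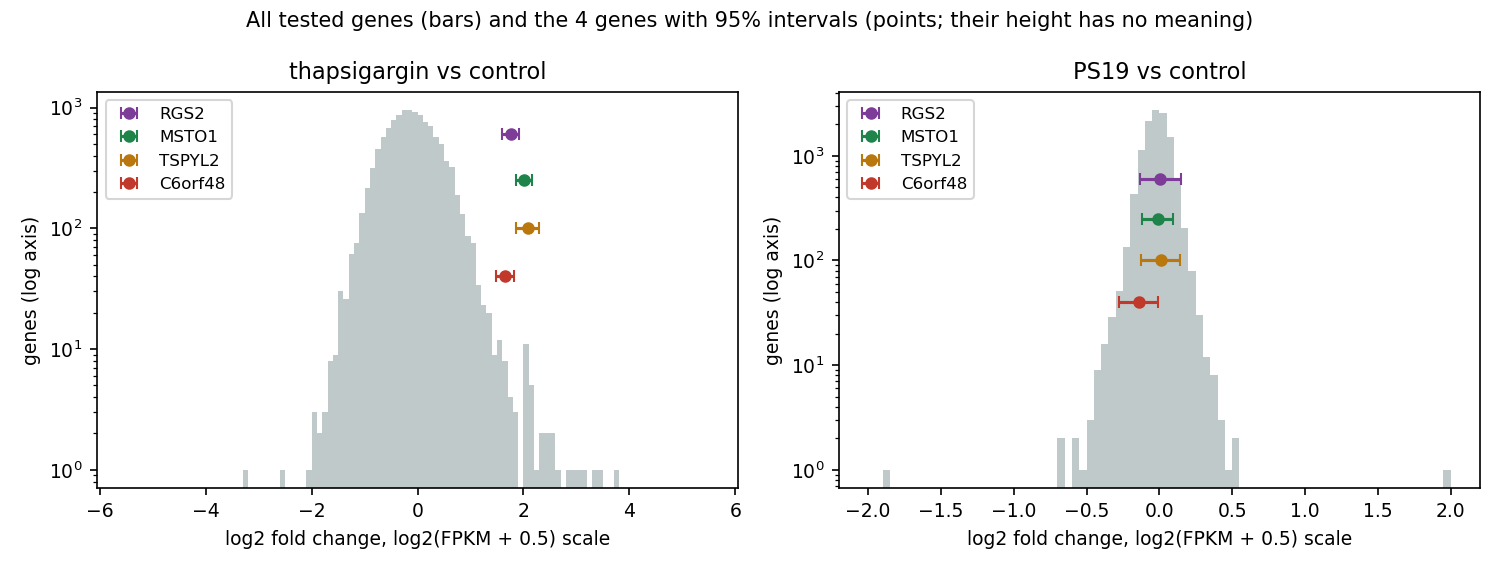
Distribution of log2 fold changes over all 11753 tested genes (bars, number of genes on a log axis) for thapsigargin over control (left) and PS19 over control (right), with the estimates and 95% intervals of RGS2, MSTO1, TSPYL2 and C6orf48 (points, whose height has no meaning). With thapsigargin the points lie in the far right tail at 1.66 to 2.08, where the choice of these genes put them. Their intervals in that panel are no test and take no account of the choice. With PS19 lysate RGS2, MSTO1 and TSPYL2 lie at -0.012 to 0.0080 among the bulk of the genes. C6orf48 lies lower, at -0.14, and ranked 10952nd of 11753 genes from the highest.

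The families and partners of the 4 genes were then examined. These lists were drawn up by known role, with earlier results of these data in view. The thapsigargin to control comparison was broad: 26% of tested genes were higher and 43.4% lower at an adjusted p of 0.1 in limma, with a median log2 fold change of -0.127 over all tested genes. The balance depended on scaling. Calls numbered 3058 higher and 5100 lower as deposited, 2039 and 6424 after rescaling to TPM, 4014 and 3924 after median-ratio scaling, and 3716 and 4132 after quantile normalization. Summed FPKM was 551499 to 637687 in thapsigargin libraries, 523601 to 547043 in PS19 libraries and 506146 to 552511 in control libraries, and correlations of log2 values within groups were 0.9632 to 0.9979. All 8 HEK293 markers were above 1 FPKM in every library. Of 10 brain markers analysed, 6 were below 1 FPKM throughout. The sums over all 10 were 10.11 to 11.18 FPKM in thapsigargin, 11 to 11.95 FPKM in PS19 and 9.69 to 11.57 FPKM in control libraries. GAD1 made up most of these sums, with means of 7.60, 7.18 and 6.51 FPKM in that order. The others that reached 1 FPKM were lowest with thapsigargin: MBP (0.388, 0.70 and 0.644), SYT1 (1.42, 1.90 and 1.96) and SLC17A7 (0.686, 1.08 and 1.15). These differences were not tested.

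Of the other regulators of G protein signalling, 9 of 20 listed were tested, and 1 rose and 1 fell with thapsigargin (median log2 fold change -0.094). These were 11.1% each, against 26% higher and 43.4% lower over all tested genes. RGS16, which also acts on Gi and Gq alpha subunits, was at 21.95 ± 2.04 FPKM with thapsigargin, 10.2 ± 0.539 FPKM with PS19 lysate and 9.55 ± 0.720 FPKM with control lysate (SD, n = 5 each), a log2 fold change of 1.16 (SE 0.084, limma adjusted p = 8.26e-07). RGS12 was at 2.73 ± 0.329 FPKM with thapsigargin and 3.97 ± 0.170 FPKM with control lysate, and its log2 fold change was -0.47 (limma adjusted p = 0.00087), but -0.19 after quantile normalization, where the call was lost (adjusted p = 0.164). RGS10 and RGS17 had log2 fold changes of 0.16 and -0.19 and did not pass (adjusted p = 0.136 and 0.151). RGS1, RGS13, RGS18 and RGS21 were not analysed here, and 7 further members, among them RGS4 and RGS5, were under the minimum level. RGS16 was called in each scaling, whereas the number of calls higher and lower was 1 and 4 after TPM, 2 and 1 after median-ratio and 2 and 0 after quantile normalization.

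The G proteins and effectors of the pathways on which RGS2 acts were mostly lower with thapsigargin. Of 18 listed Gq, phospholipase C, IP3 receptor, adenylyl cyclase and G alpha genes, 13 were tested. Of these, 1 rose (7.69%, against 26% of all tested genes) and 10 fell (76.9%, against 43.4%). The median log2 fold change was -0.51, against -0.127 over all tested genes. The cyclases ADCY6 and ADCY3, which make cyclic AMP, had log2 fold changes of -0.80 and -0.81 (adjusted p = 2.69e-05 and 7.28e-05). ADCY6 averaged 3.88 ± 0.243 FPKM with thapsigargin and 7.17 ± 0.816 FPKM with control lysate. ITPR3, an ER calcium release channel opened by IP3, was at 5.24 ± 0.333 FPKM with thapsigargin and 8.30 ± 0.838 FPKM with control lysate, a log2 fold change of -0.61 (adjusted p = 0.000128). Of the Gq alpha subunits, GNA11 was at -0.41 on the log2 scale (adjusted p = 0.000599) and GNAQ at -0.38 (adjusted p = 0.0245), the GNAQ call being lost after quantile normalization (adjusted p = 0.157). The gene that rose was GNAS, the Gs alpha subunit, named after its values were seen: it was at 1499 ± 436 FPKM with thapsigargin and 940.3 ± 116 FPKM with control lysate, a log2 fold change of 0.63 (adjusted p = 0.00759). The call of PLCB4 (log2 fold change -0.24, limma adjusted p = 0.0803), named after its values were seen, was lost in 9 of 21 alternatives. Among them were median-ratio scaling (adjusted p = 0.292) and quantile normalization (adjusted p = 0.779). Higher and lower calls in this list numbered 1 and 11 after TPM, 2 and 9 after median-ratio and 1 and 8 after quantile normalization.

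The subunits of eIF2B, the exchange factor that reloads eIF2 with GTP and that RGS2 can bind, moved little. EIF2B5, the epsilon subunit, was at 22.4 ± 1.67 FPKM with thapsigargin, 19.7 ± 1.03 FPKM with PS19 lysate and 18.5 ± 1.86 FPKM with control lysate (SD, n = 5 each), a log2 fold change of 0.27 (adjusted p = 0.0153). EIF2B1, the alpha subunit, was at 0.17 on the log2 scale (adjusted p = 0.0317). EIF2B3 and EIF2B2 had values of 0.12 and -0.055 and did not pass (adjusted p = 0.295 and 0.616). These 2 rises of 5 subunits (40%, against 26% of all tested genes) depended on scaling, and 0% fell (against 43.4%). After TPM none was higher and 1 was lower, with EIF2B5 at 0.12 (adjusted p = 0.296). After median-ratio scaling 3 were higher, and after quantile normalization 1 was.

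Genes of mitochondrial fusion, fission and distribution, the processes in which MSTO1 takes part, were also measured. Of 23 tested, 4 rose (17.4%, against 26% of all tested genes) and 10 fell (43.5%, against 43.4%), with a median log2 fold change of -0.176, so the share that fell was that of the background. The fusion GTPases of the outer membrane fell: MFN2 was at 26.1 ± 3.44 FPKM with thapsigargin and 38.7 ± 2.55 FPKM with control lysate, a log2 fold change of -0.56 (adjusted p = 0.000384), and the value for MFN1 was -0.65 (adjusted p = 0.00126). TRAK1, an adaptor that links mitochondria to kinesin, was at -0.43 (adjusted p = 0.00182). MTFP1, an inner membrane protein that promotes fission, was at 96.4 ± 6.07 FPKM with thapsigargin, 62.0 ± 2.92 FPKM with PS19 lysate and 60.2 ± 4.84 FPKM with control lysate, a log2 fold change of 0.68 (adjusted p = 2.50e-05). The other rises, named after their values were seen, were 0.33 for MIGA2, 0.22 for MTFR2 and 0.19 for MFF, and all of these lost the call after TPM rescaling. Some falls, also named after their values were seen, were weak. The call of YME1L1 (-0.40, adjusted p = 0.0643) was lost in 9 of 22 alternatives and that of MIEF2 (-0.19, adjusted p = 0.0578) in 7 of 22. MIGA1 and RHOT1 lost the call after quantile normalization, MIEF1 after median-ratio scaling and TRAK2 after both. Higher and lower calls numbered 1 and 13 after TPM, 7 and 6 after median-ratio and 4 and 6 after quantile normalization.

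None of the tested relatives of TSPYL2 rose. Of 8 tested TSPY-like, nucleosome assembly and partner genes, 0 rose (0%, against 26% of all tested genes) and 5 fell. The share that fell was 62.5%, against 43.4% of all tested genes, with a median log2 fold change of -0.48. TSPYL1, its paralogue, was at 12.3 ± 5.67 FPKM with thapsigargin, 39.2 ± 5.23 FPKM with PS19 lysate and 39.6 ± 9.11 FPKM with control lysate (SD, n = 5 each), a log2 fold change of -1.73 (SE 0.267, adjusted p = 0.000214). For TSPYL4 the log2 fold change was -0.79 (adjusted p = 0.00465), and NAP1L2, a histone chaperone, one of -0.57 (adjusted p = 0.000629). CASK, the membrane scaffold that TSPYL2 binds, was at 2.88 ± 1.01 FPKM with thapsigargin and 4.52 ± 0.381 FPKM with control lysate, a log2 fold change of -0.62 (adjusted p = 0.00871). The call of the fifth, NAP1L3 (log2 fold change -0.39, adjusted p = 0.066), named after its values were seen, was lost in 9 of 22 alternatives, among them median-ratio scaling (adjusted p = 0.152) and quantile normalization (adjusted p = 0.503). The number lower was 8 after TPM, 4 after median-ratio and 6 after quantile normalization, and none was higher in any of these. The 30 listed snoRNA host genes, the class to which C6orf48 belongs, were not analysed here. With PS19 lysate 0 of the 58 tested genes of these lists passed in limma, and 2 had an unadjusted p under 0.05.

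**Figure D3:**
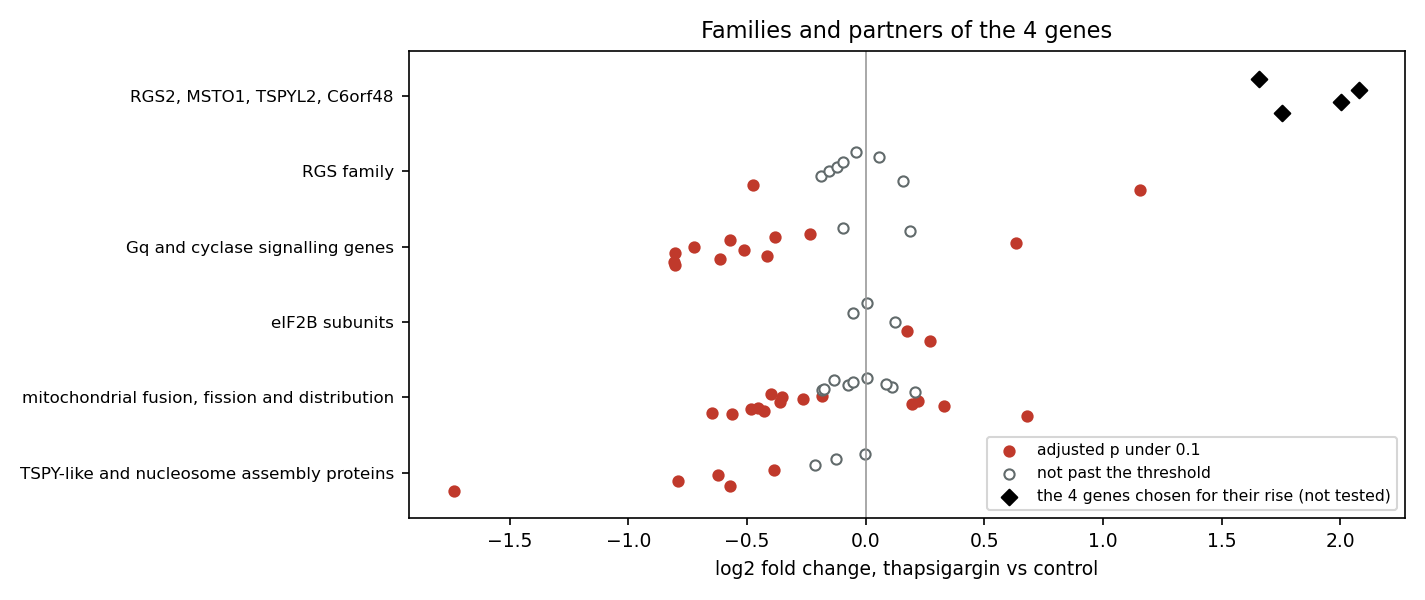
Log2 fold change of thapsigargin over control (horizontal axis) for RGS2, MSTO1, TSPYL2 and C6orf48 (black diamonds, not tested) and for each tested gene of their families and partners (circles, filled where limma's adjusted p was under 0.1). RGS16 at 1.16 is the only relative above 1, and TSPYL1 at -1.73 lies at the other end from TSPYL2 at 2.08.

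The tested genes nearest to the 4 on their chromosomes did not share the pattern as a block. Up to 3 tested genes on each side were taken from the RefSeq gene table, which gave 24 neighbours, and their log2 fold changes over control ran from -2.58 to 1.27. For MSTO1 the gene on one side, ASH1L, a histone methyltransferase, was at 6.24 ± 1.54 FPKM with thapsigargin and 13.3 ± 1.30 FPKM with control lysate (log2 fold change -1.06, adjusted p = 6.43e-05), while YY1AP1 on the other side was at -0.065 (adjusted p = 0.448). For TSPYL2 the neighbour KDM5C, a histone demethylase, was at 0.019 (adjusted p = 0.818) and FAM156A at 1.27 (adjusted p = 8.44e-05). FAM156A and the next gene FAM156B (0.40, adjusted p = 0.00595) are near-identical copies, so their separate values are uncertain. MAGED4, the next tested gene beyond FAM156B, was also higher (0.34, adjusted p = 0.00744). Stretches shared with other genes were compared only for the 4 chosen genes, so copies of MAGED4 were not looked for. On the side of KDM5C, IQSEC2 was at 0.045 (adjusted p = 0.687) and SMC1A was lower (-0.69, adjusted p = 0.00247).

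HSPA1B, an inducible cytosolic HSP70 gene and the neighbour of C6orf48, moved the opposite way. It was at 100.9 ± 20.7 FPKM with thapsigargin, 531.7 ± 57.3 FPKM with PS19 lysate and 598.1 ± 49.98 FPKM with control lysate (SD, n = 5 each), a log2 fold change of -2.58 (adjusted p = 3.08e-08), with the reservation that its near-identical copy HSPA1A can take or give reads. Beyond HSPA1B, LSM2 was at 0.088 (adjusted p = 0.351) and VARS was higher (0.55, adjusted p = 0.00128). NEU1, a lysosomal sialidase on the other side of C6orf48, was at 26.8 ± 1.33 FPKM with thapsigargin and 15.9 ± 1.10 FPKM with control lysate (log2 fold change 0.74, adjusted p = 9.29e-06). Beyond NEU1, EHMT2 was at 0.079 (adjusted p = 0.497) and ZBTB12 was lower (-0.24, adjusted p = 0.0587). The ZBTB12 call was lost in 7 of 22 alternatives. The tested genes nearest to RGS2 on one side, PLA2G4A, ODR4 and TPR, are far from it rather than adjacent, with genes that were not tested between them. Of the nearest tested genes of RGS2, ODR4 (0.65, adjusted p = 2.49e-05) and GLRX2, a mitochondrial glutaredoxin (0.51, adjusted p = 0.00142), were higher. PLA2G4A, the cytosolic phospholipase A2, was lower (-0.54, adjusted p = 0.00805), as was TPR (-0.19, adjusted p = 0.0480). The TPR call was lost after median-ratio scaling (adjusted p = 0.517). UCHL5, a proteasome deubiquitinase, was at 0.19 (adjusted p = 0.138) and TROVE2 at 0.025 (adjusted p = 0.848).

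**Figure D4:**
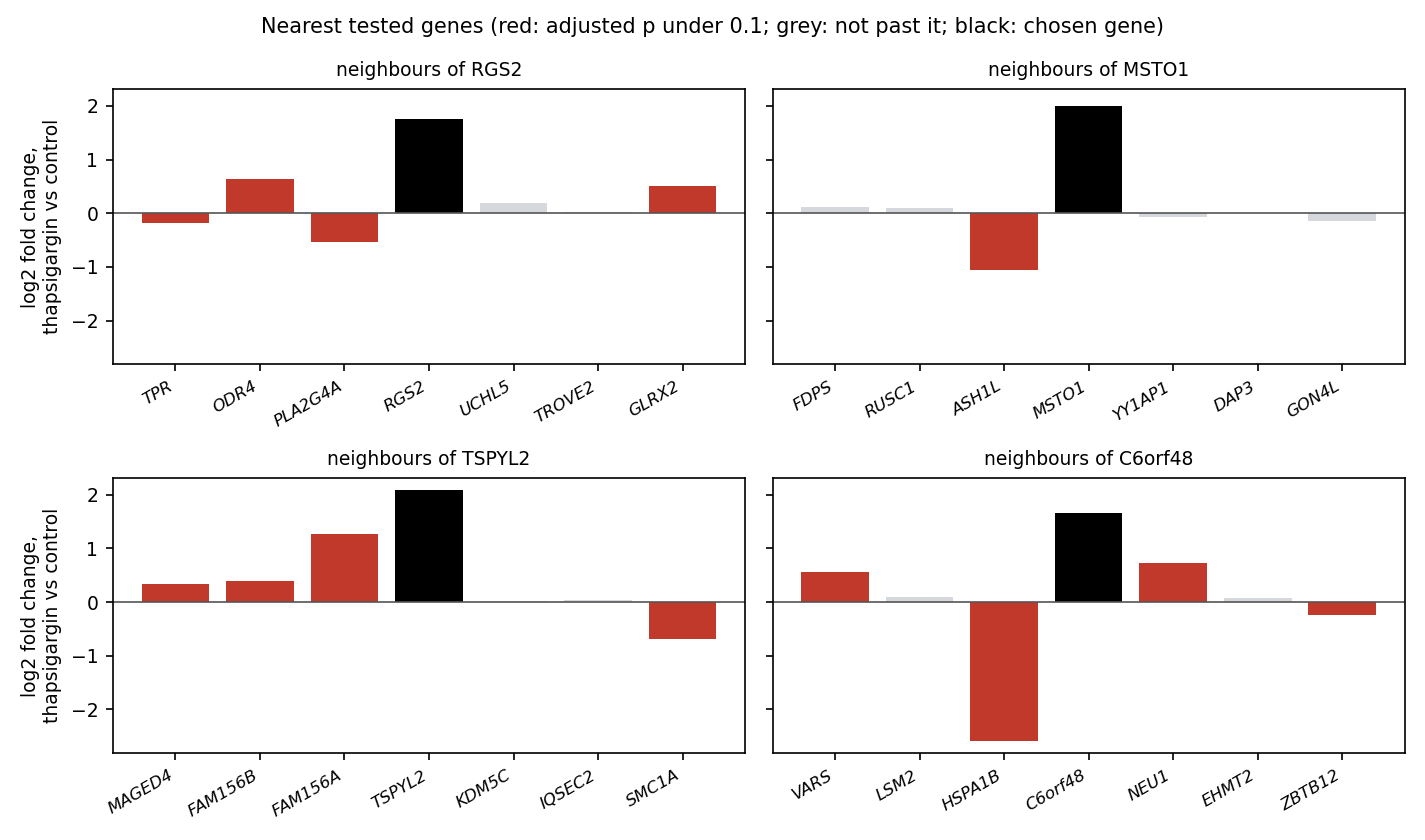
Log2 fold change of thapsigargin over control (vertical axes) for the nearest tested genes on either side of RGS2, MSTO1, TSPYL2 and C6orf48, in chromosomal order and not to scale (red where limma's adjusted p was under 0.1, grey where not, black for the chosen gene). Each black bar is the tallest upward bar of its panel, and next to C6orf48 at 1.66 stands HSPA1B at -2.58.

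Profiles over the 15 libraries were compared by the root mean square distance between log2(FPKM + 0.5) values, each centred on its control mean. This is a description, since every gene with a like rise comes out close. MSTO1 lay nearest to SYVN1, the HRD1 ubiquitin ligase of ER-associated degradation (distance 0.081), DNAJB11, an ER co-chaperone of BiP (0.090), CRELD2, an ER-resident protein (0.105), TSPYL2 (0.120) and ZNF165, a zinc finger protein (0.161). SYVN1 averaged 141.4 ± 13.3 FPKM with thapsigargin, 31.05 ± 1.49 FPKM with PS19 lysate and 32.7 ± 2.47 FPKM with control lysate. The 5 genes nearest to TSPYL2 were DNAJB11 (0.105), SYVN1 (0.118), MSTO1 (0.120), ZNF165 (0.131) and CRELD2 (0.148).

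RGS2 lay nearest to NUCB2, which encodes the calcium-binding protein nucleobindin (0.119), HSP90B1, the ER chaperone GRP94 (0.137), the ER membrane selenoproteins SELENOK and SELENOS (0.149 each) and CDRT4 (0.16). NUCB2 averaged 112.1 ± 10.6 FPKM with thapsigargin, 34.3 ± 1.05 FPKM with PS19 lysate and 33.3 ± 2.71 FPKM with control lysate. C6orf48 lay nearest to SELENOK (0.111), GMPPA, a subunit of GDP-mannose synthesis (0.124), CCNB1IP1, a ubiquitin ligase (0.135), EIF4EBP1, which binds the cap factor eIF4E (0.141), and HID1 (0.15). Among the chosen genes MSTO1 and TSPYL2 were closest to each other, and C6orf48 and TSPYL2 farthest apart (0.275).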

How the data were processed

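RNA-Seq was performed on 15 libraries of Biosensor cells, with group and replicate taken from the sample labels. The authors made stranded mRNA libraries, used SOAPnuke for read filtering, HISAT2 2.0.4 for mapping (GRCh38.p12) and RSEM 1.2.12 for quantification. The deposited values are FPKM. A search of low genes for a whole-read step shared by the 15 libraries found none (0 of 2712 genes). That step changes with library depth, so the search cannot tell whether whole reads underlie the values. The paper states a nominal number of reads per sample, but the depth that each library reached is unknown. No counting interval is therefore given. Rows naming no gene (693 to 1101 a table) were left out, and 26 symbols turned into dates were restored by gene ID. Genes averaging 1 FPKM or more (11753 of 18338) were tested on log2(FPKM + 0.5) with limma 3.58.1 in R 4.3.3, with a mean-variance trend and Benjamini-Hochberg adjustment over all of them, at 0.1. Single genes were also tested by an exact permutation test over the 252 arrangements of 5 and 5 libraries. The script was tested on simulated data. The members and gene lists were chosen with earlier results of these data known. Named genes were the 4 members, up to 4 genes of smallest p in each list with named partners, the 5 nearest profiles, and up to 3 tested neighbours a side. Stretches of 100 bases were compared over annotated transcripts, and promoters came from RefSeq (GRCh38.p14).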

Additional observations from a re-analysis of the deposited data

Results flagged for a closer look

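C6orf48 in control replicate 4 was at 35.69 FPKM, below the 41.19 to 41.9 FPKM of the other control libraries, and its gap to the nearest of them took 0.886 of the range of the group. Of the 12 groups of 5 libraries checked this was the only value whose gap passed the cut-off of 0.71. Chance passes that cut-off in about 1 in 20 groups. A gap as large as 0.886 is rarer than that, and how rare was not computed. Without that library every PS19 value of C6orf48 (highest 39.54 FPKM) lay below every control value. The log2 fold change with PS19 lysate was then -0.19 (SE 0.060), compared with -0.14 (SE 0.063) with all libraries (limma adjusted p = 0.824 and 0.820).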

How the results depend on the processing

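The thapsigargin fold changes of the 4 genes kept their sign under all 21 alternatives, and only scaling moved them beyond the spread between libraries. Over control, TPM rescaling gave 1.62 for RGS2, 1.84 for MSTO1 and 1.5 for C6orf48, median-ratio scaling gave 1.88, 2.13 and 1.79, and quantile normalization gave 1.85 for MSTO1 and 1.53 for C6orf48. Over PS19, TPM rescaling gave 1.64 for RGS2, 1.88 for MSTO1 and 1.67 for C6orf48, median-ratio scaling gave 1.86 for RGS2 and 2.13 for MSTO1, and quantile normalization gave 1.88 for MSTO1. With PS19 lysate, estimates near 0 changed sign: RGS2 was at -0.016 and TSPYL2 at -0.015 after TPM rescaling, and MSTO1 was at 0.0074 after median-ratio scaling. Leaving out 1 library gave -0.032 to 0.043 for RGS2, -0.039 to 0.012 for MSTO1 and -0.036 to 0.056 for TSPYL2. The number of genes called with PS19 lysate, 5 as reported, was 3 with no filter, 0 after TPM, 3 after median-ratio scaling, 0 with all 15 libraries fitted together, 3 without the variance trend and 2 at a threshold of 0.05, and 0 to 13 on leaving out 1 library, with 13 without control replicate 1. None of these called any of the 4 genes (lowest adjusted p 0.479), and the cause was not tested. The replicate numbers were not taken to pair the libraries, since no source says so and not every pair of same-numbered deviations correlated above 0.1: 4 of 5 did for thapsigargin and control, 4 of 5 for PS19 and control and 1 of 5 for thapsigargin and PS19 (range -0.209 to 0.609). Of the 5 pairs, 1, 3 and 1 in these comparisons correlated best with their own number. With the replicate block the calls numbered 8582 for thapsigargin over control against 8158 without it, 13 for PS19 against 5, and 7854 for thapsigargin over PS19 against 7993. FPKM values without the depth that each library reached limit what can be said of counting error in low genes such as RGS12.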
